A study of Mus musculus with 2 samples.

Results

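The enzymes of glycolysis were examined as a set of 10 genes in the whole omentum. The set holds Hk1, Gpi1, Pfkl, Pfkp, Aldoa, Gapdh, Pgk1, Eno1, Pkm and Ldha. Members were the rows whose gene symbol was one of these names, and all 10 were present among the 24346 gene symbols listed for each library.

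The omentum is a fold of abdominal fat that holds milky spots, which are clusters of leukocytes and stromal cells. RNA-seq was done on the omentum of wild-type (WT) mice and of Postn-DTR mice, in which the diphtheria toxin receptor is placed in the Postn locus, with 1 library per genotype. Both genotypes received diphtheria toxin (DT) and were sampled 5 days later, so the WT library is also a DT-treated one. Cells that use the Postn promoter are the ones made sensitive to DT, and the promoter can be active in more than 1 kind of stromal cell. The age and sex of the mice, and whether a library was 1 mouse or a pool, were not given in the labels.

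Glycolysis splits glucose into pyruvate in the cytosol and yields ATP and NADH without oxygen. Hexokinase and phosphofructokinase commit glucose to the pathway, the middle enzymes rearrange and oxidise triose phosphates, and lactate dehydrogenase returns NAD+ by turning pyruvate into lactate. In adipocytes the pathway also supplies glycerol 3-phosphate and pyruvate for fat synthesis, and in activated macrophages and neutrophils it is a main source of ATP. Gapdh is both an enzyme of the pathway and a common reference gene for RNA measurements.

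Values are FPKM, which corrects the fragment count for transcript length and library depth, so that levels of different genes can be set side by side. A change is log2(FPKM + 1) of Postn-DTR less that of WT, and it understates the change of low genes. A ratio is the FPKM of Postn-DTR divided by that of WT. With 1 library per genotype there was no spread between replicates and no test between genotypes, so each difference below is between these 2 libraries. Depth was estimated from the steps between low values as near 23100000 fragments in the WT library and 24000000 in the other. The 95% intervals printed for ratios cover counting error only and would not show variation between mice.

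The libraries differed in ways that touch every value below. Postn itself, the locus that carries the receptor, was at 58.3 FPKM in WT and 16.2 in Postn-DTR. The study describes its Postn-DTR mice as heterozygous, with the receptor placed in the first coding exon. Loss of cells and the altered allele cannot be told apart in this level. Pancreatic acinar genes were lower in Postn-DTR for 29 of 29 genes compared, with a summed level of 13015 FPKM in WT and 20.7 in Postn-DTR. As deposited, summed markers were higher in Postn-DTR, at 2911 and 4859 FPKM for macrophages (8 of 8 higher), at 421.9 and 693.6 FPKM for neutrophils (5 of 7 higher) and at 274.7 and 838.5 FPKM for erythrocytes (3 of 3 compared higher). Of the neutrophil markers, Camp was at 33.1 and 8.98 FPKM and Ngp at 48.0 and 13.2 FPKM, opposite to the sum. Summed T cell markers were lower, at 115.0 and 61.0 FPKM (7 of 7 lower). Summed B cell markers were also lower, at 521.4 and 349.5 FPKM (8 of 8 lower). Adipocyte markers summed to 14793 and 14099 FPKM (6 of 8 lower, median change -0.48). Of these, Fabp4 was higher, at 4879 and 6519 FPKM, as was Cidec, at 512.8 and 591.5 FPKM. Fibroblast markers summed to 4014 and 3397 FPKM (5 of 8 lower, median change -0.43). Mesothelial markers summed to 467.6 and 473.7 FPKM (3 of 5 higher). With acinar genes removed and totals equalised, the median change of the mesothelial markers turned from 0.27 to -0.06, and scaled to Rpl13a 4 of 8 macrophage markers were higher. Skeletal muscle markers, which would carry muscle glycolytic enzymes, summed to 3.62 and 3.79 FPKM over 6 genes, and Myh4 was listed at 0 in both. The part of these cell types in the levels of the glycolytic enzymes was not tested, and in whole tissue fewer cells of a type and less RNA per cell cannot be told apart. The sum of FPKM over all genes was 542190 in WT and 671882 in Postn-DTR, so directions of the enzymes are also given after other scalings of the libraries.

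The promoters of the set are shown first, because hypoxia-inducible factors, known activators of glycolytic genes, bind elements with the core letters ACGTG or GCGTG. RefSeq promoter windows on GRCm38.p6 were found for 10 of 10 members, with 17 windows in all, and each window was searched over the 250 bases before the start of the transcript, on both strands. ACGTG was present in 5 of 17 windows, belonging to 4 of 10 genes, and in 16.6% of all 32851 windows of the same length. GCGTG was present in 8 of 17 windows from 6 genes, and in 28.2% of all windows. Some windows of a gene overlap, so a match can be counted more than once. Overlapping Aldoa windows hold the same ACGTG match, and overlapping Eno1 windows the same GCGTG matches. No share per gene was computed, so neither count shows an excess in the set. A match is a stretch of letters and not evidence of binding. The 3 windows below are of Ldha, Pgk1 and Gapdh. The Ldha window shown had the most matches, and Ldha had the most negative change of the set. Aldoa and Pkm also hold ACGTG, in windows not shown, and had changes of -0.33 and 0.03 as deposited. A link between matches and changes was not tested. Pgk1 was higher in Postn-DTR as deposited but lower under 2 of the other scalings, and the level of Gapdh as deposited hardly differed. Capitals mark ACGTG on either strand (read as CACGT on the other strand), and the palindrome CACGTG counts once per strand. The Ldha window lies at chr7:46845554-46845803 on the plus strand, the Pgk1 window at chrX:106186850-106187099 on the plus strand and the Gapdh window at chr6:125165774-125166023 on the minus strand. None of the 3 overlaps an exon in GENCODE M21.
Ldha: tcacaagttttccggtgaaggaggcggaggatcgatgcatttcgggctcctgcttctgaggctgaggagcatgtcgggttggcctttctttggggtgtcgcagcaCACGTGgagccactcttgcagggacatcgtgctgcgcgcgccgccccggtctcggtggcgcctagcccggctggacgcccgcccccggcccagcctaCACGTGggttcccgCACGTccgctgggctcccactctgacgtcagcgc
Pgk1: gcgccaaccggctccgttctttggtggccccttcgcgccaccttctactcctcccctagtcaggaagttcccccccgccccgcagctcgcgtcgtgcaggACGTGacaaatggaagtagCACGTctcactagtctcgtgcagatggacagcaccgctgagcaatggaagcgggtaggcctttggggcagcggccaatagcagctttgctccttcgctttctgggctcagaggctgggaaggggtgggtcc
Gapdh: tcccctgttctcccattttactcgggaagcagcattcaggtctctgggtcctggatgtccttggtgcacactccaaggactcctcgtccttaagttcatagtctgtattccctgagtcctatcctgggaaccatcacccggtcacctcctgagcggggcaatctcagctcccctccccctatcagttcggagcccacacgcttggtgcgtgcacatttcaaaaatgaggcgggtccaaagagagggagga
The Ldha window shown held 5 matches to ACGTG, 4 of them in the 2 copies of CACGTG. The Pgk1 window held 2, and the Gapdh window held 0 of ACGTG and 2 of GCGTG. Another Ldha window, at chr7:46846832-46847081, held 0 of ACGTG and 1 of GCGTG, and which start the omentum uses was not tested. Ldha and Pgk1 differed in opposite directions as deposited, and in the same direction under the 2 scalings that lower Pgk1. The part of ACGTG in these directions was not tested.

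Glycolytic enzymes were among the more abundant transcripts of the omentum, and their levels as deposited differed little between the 2 libraries, though not under every scaling. Of the 10 enzymes, 0 were at least 2-fold higher and 0 at least 2-fold lower in Postn-DTR, where 3.88% of the 13127 genes compared were at least 2-fold higher and 3.12% at least 2-fold lower. At 1.5-fold the count was also 0 in both directions, beside 9.86% of all genes higher and 8.84% lower. As deposited, a count of 0 among 10 genes is near these shares and does not set the enzymes apart from other genes. The 1.5-fold count was 4 with acinar genes removed and totals equalised, and 7 when scaled to Rpl13a, a ribosomal protein gene. The median of all genes was then -0.28 and -0.56, and 5.66% and 12.4% of all genes were at least 2-fold lower. The share of all genes past 1.5-fold was not computed under these scalings, so the counts of 4 and 7 do not set the enzymes apart either. The changes ran from -0.39 for Ldha to 0.41 for Gpi1, with a median of -0.02, beside 0.02 over all genes compared. The middle range of all genes, from the 25th to the 75th percentile, was -0.24 to 0.28, and 5 of the 10 enzymes lay in it. The summed level of the 10 enzymes was 2958 FPKM in WT and 2667 in Postn-DTR, a ratio of 0.902, which was 0.546% and 0.397% of all FPKM.

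**Figure D1:**
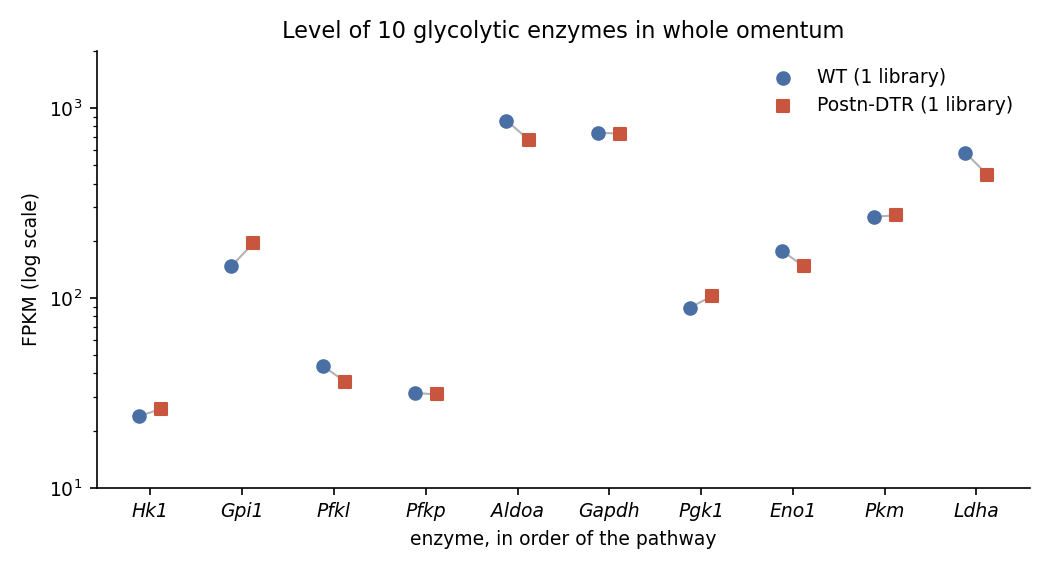
FPKM of the 10 glycolytic enzymes (log axis) in pathway order, with a circle for the WT library, a square for the Postn-DTR library and a line joining the pair. Levels run from 23.9 FPKM for Hk1 to 858.4 FPKM for Aldoa in WT, and every pair differs by less than 1.5-fold as deposited.

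The upper steps gave the lowest levels and both directions. Hexokinase phosphorylates glucose and traps it in the cell. Hk1 (ENSMUSG00000037012, chr10:62268855-62379908) was at 23.9 FPKM in WT and 26.1 in Postn-DTR, a ratio of 1.09 with a counting interval of 1.03 to 1.16. It was the lowest of the 10 enzymes in both libraries and rested on about 2012 and 2285 reads. Its share of the summed hexokinases was 56.4% in WT and 56.0% in Postn-DTR. The inducible Hk2 made up 26.2% and 23.8%, and Hk3, a form found in myeloid cells, 17.1% in WT and 2.93 percentage points more in Postn-DTR. Hk3 was at 7.24 and 9.33 FPKM, a change of 0.33. That change was 0.02 with acinar genes removed and totals equalised, and -0.26 when scaled to Rpl13a. Macrophage markers also differed between the libraries, and their part in the level of Hk3 was not tested.

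Gpi1, which turns glucose 6-phosphate into fructose 6-phosphate, had the most positive change of the set. Gpi1 (ENSMUSG00000036427, chr7:34201330-34230336) was at 146.3 FPKM in WT and 194.2 in Postn-DTR, a ratio of 1.33 (1.29 to 1.36) and a change of 0.41. It stood below Eno1 in WT and above it in Postn-DTR. Its direction was kept in each scaling but 1: relative to Rpl13a its change was -0.26.

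Phosphofructokinase sets the pace of the pathway. Pfkl, the liver-type subunit (ENSMUSG00000020277, chr10:77986947-78010083), was at 43.8 FPKM in WT and 36.3 in Postn-DTR, a ratio of 0.829 (0.789 to 0.870). Pfkp, the platelet-type subunit (ENSMUSG00000021196, chr13:6579768-6648777), was at 31.6 and 31.1 FPKM, a ratio of 0.983 whose interval of 0.934 to 1.04 held 1. The muscle-type Pfkm was at 12.9 and 10.6 FPKM. Pfkl was thus the leading subunit in both libraries, at 49.6% of the summed subunits in WT and 46.5% in Postn-DTR, with Pfkp at 35.8% and 39.8%. The 3 subunits together had a ratio of 0.883.

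The middle steps held the most abundant transcripts. Aldoa, which cleaves fructose 1,6-bisphosphate into triose phosphates (ENSMUSG00000030695, chr7:126795234-126800751), was at 858.4 FPKM in WT and 681.1 in Postn-DTR, a ratio of 0.793 (0.779 to 0.808). It made up 99.8% of the sum of Aldoa and Aldoc, the brain-type aldolase, in both libraries. Tpi1, the next enzyme of the pathway and no member of the set, was also lower, at 182.7 and 124.5 FPKM, a change of -0.55.

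Gapdh oxidises glyceraldehyde 3-phosphate and makes NADH. Gapdh (ENSMUSG00000057666, chr6:125161715-125166467) was at 739.2 FPKM in WT and 733.0 in Postn-DTR, a ratio of 0.992 with an interval of 0.973 to 1.01. Its change of -0.01 as deposited was smaller in size than that of all but 2.49% of the genes compared, and it was the smallest of the 10 enzymes. At an equal 75th percentile its change was -0.12, larger in size than those of Hk1, Pkm and Pgk1. The highest level among the enzymes was that of Aldoa in WT and that of Gapdh in Postn-DTR. The level of Aldoa relative to Gapdh was 1.16 in WT and 0.929 in Postn-DTR.

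Pgk1 and Eno1, on either side of phosphoglycerate mutase, differed in opposite directions as deposited, with Pgk1 turning lower under 2 scalings described below. Pgk1, which makes the first ATP of the pathway (ENSMUSG00000062070, chrX:106187100-106203699), was at 88.9 FPKM in WT and 102.2 in Postn-DTR, a ratio of 1.15 (1.10 to 1.20). Eno1, which forms phosphoenolpyruvate (ENSMUSG00000063524, chr4:150236721-150248879), was at 177.3 and 146.5 FPKM, a ratio of 0.826 (0.799 to 0.854). Pgam1, the mutase between them and no member of the set, was at 106.5 and 114.0 FPKM.

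The last steps handle pyruvate. Pkm, pyruvate kinase (ENSMUSG00000032294, chr9:59656368-59679375), was at 267.2 FPKM in WT and 272.1 in Postn-DTR, a ratio of 1.02 whose interval of 0.995 to 1.04 held 1. The liver form Pklr was listed at 0 in both, so Pkm was the pyruvate kinase of this tissue. Gene-level FPKM does not separate its M1 and M2 splice forms.

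Ldha, which reduces pyruvate to lactate, had the most negative change of the set. Ldha (ENSMUSG00000063229, chr7:46841475-46855627) was at 581.5 FPKM in WT and 444.9 in Postn-DTR, a ratio of 0.765 (0.750 to 0.781) and a change of -0.39. Ldhb, the heart-type subunit that favours lactate oxidation, was at 53.6 and 73.6 FPKM, a change of 0.45 that became -0.21 when scaled to Rpl13a. The share of Ldha in the summed lactate dehydrogenases was 91.6% in WT and 85.8% in Postn-DTR, and that share does not depend on how the libraries are scaled. Relative to Gapdh, the level of Ldha was 0.787 in WT and 0.607 in Postn-DTR.

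By size, 4 of the 10 enzymes were lower by at least 0.25 (Pfkl, Aldoa, Eno1 and Ldha), 1 was higher by as much (Gpi1) and 3 differed by less than 0.03 (Pfkp, Gapdh and Pkm). The last 3 were those whose counting interval held 1. The order of levels was the same in both libraries except that Aldoa and Gapdh, and Eno1 and Gpi1, changed places. Aldoa, Gapdh and Ldha made up 73.7% of the summed level in WT and 69.7% in Postn-DTR. The highest level was 36.0-fold the lowest in WT and 28.1-fold in Postn-DTR. Neither Gapdh with Aldoa in Postn-DTR nor the other neighbours in the order could be compared against a replicate spread.

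The split into 4 higher and 6 lower enzymes depended on the scaling. Setting the libraries to an equal 75th percentile moved the median of all genes to -0.07, and Pkm then turned to -0.08. Removing the acinar genes and equalising the rest of the total moved that median to -0.28, and 1 enzyme (Gpi1, 0.06) was then higher, with Hk1 at -0.21, Pgk1 at -0.14 and Pkm at -0.32. Scaling to Rpl13a moved it to -0.56, and all 10 enzymes were then lower, Hk1 at -0.51, Pgk1 at -0.46, Pkm at -0.64 and Gpi1 at -0.26. Rpl13a itself had a change of 0.67 as deposited, the largest of the 15 reference genes described below. Pfkl, Pfkp, Aldoa, Gapdh, Eno1 and Ldha were lower in each of these scalings. Ratios between enzymes, such as those to Gapdh, are the same in all of them.

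**Figure D2:**
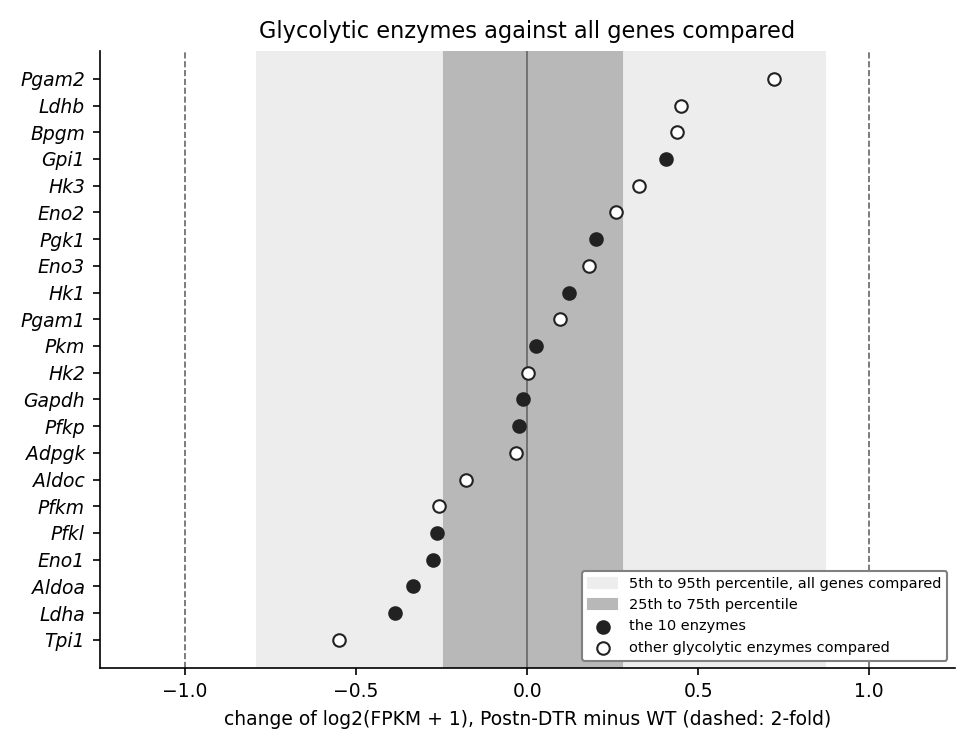
Change in log2(FPKM + 1) between the libraries, Postn-DTR minus WT, of the 10 enzymes (filled) and the 12 other glycolytic enzymes compared (open), over shaded bands for the 25th to 75th and 5th to 95th percentile of all 13127 genes compared. The 10 enzymes run from -0.39 (Ldha) to 0.41 (Gpi1, -0.26 when scaled to Rpl13a) and all lie inside the dashed lines at 2-fold.

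Other glycolytic enzymes were taken from a list of 20 genes, of which 12 passed the minimum level. Among these, 0 were at least 2-fold higher and 0 at least 2-fold lower, beside 3.88% and 3.12% of all genes. Their median change was 0.14, which became negative under some scalings (down to -0.42), and 8 of 12 were higher in the values as deposited. Pgam2, the muscle-type mutase, was at 2.07 and 4.07 FPKM. Bpgm, which makes the 2,3-bisphosphoglycerate of red cells, was at 8.23 and 11.5 FPKM, a change of 0.44 that turned to -0.16 when scaled to Rpl13a. Erythrocyte markers were higher in Postn-DTR, and their part in the level of Bpgm was not tested.

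Several members share sequence with other genes, which limits how well their reads can be assigned. How reads that fit more than 1 place were treated is not given in the sources used here. Eno1 has a close retrogene copy, Eno1b, whose coding sequence has the same length of 1302 bases and differs at 8 of them (99.4% identity). Of the 75-base windows of the Eno1 transcript, 64.2% also occur in Eno1b. Eno1b was at 180.2 FPKM in WT and 108.7 in Postn-DTR, so the level listed for the copy was close to that of Eno1 in WT. Summed, the pair was at 357.5 and 255.1 FPKM, a ratio of 0.714 and a change of -0.49, with the share given to Eno1 at 49.6% and 57.4%. The enolase level of the tissue was therefore lower in Postn-DTR for Eno1 alone and for the sum, by different amounts.

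Gapdh has the most copies of the set. Of its 75-base windows, 80.3% occur in at least 1 of 118 other genes, and 65.4% occur in the 7 of these that have a row in the files. The 6 listed Gapdh pseudogenes summed to 5.95 FPKM in WT and 4.22 in Postn-DTR, which was 0.805% and 0.575% of Gapdh. Pgk1 shared 67.5% of its windows with 4 other genes, Pkm 19.6%, Gpi1 9.96%, Ldha 5.38% and Aldoa 1.53%. Hk1, Pfkl and Pfkp shared 0.

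Gapdh was next placed among 15 genes in common use as references, because a ratio to Gapdh carries any change of Gapdh itself. All 15 lay within 2-fold, from -0.27 for Sdha to 0.67 for Rpl13a, with a median of 0.06. As deposited, Gapdh had the next smallest change after Ywhaz, a 14-3-3 protein, which was at 111.1 and 110.7 FPKM. Actb, cytoplasmic actin, was at 1469 and 1268 FPKM, and Ppia, cyclophilin A, at 1476 and 1529 FPKM. Gusb, a lysosomal glucuronidase, was at 52.8 and 78.0 FPKM, the ribosomal protein gene Rplp0 at 966.5 and 1470 FPKM, and the elongation factor Eef1a1 at 3650 and 5152 FPKM. These orders hold for the values as deposited: with acinar genes removed and totals equalised, the change was -0.36 for Gapdh, 0.32 for Rpl13a and 0.15 for Eef1a1. The level of Rpl13a relative to Gapdh was 1.19 in WT and 1.90 in Postn-DTR. Ywhaz relative to Gapdh was 0.150 and 0.151.

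**Figure D3:**
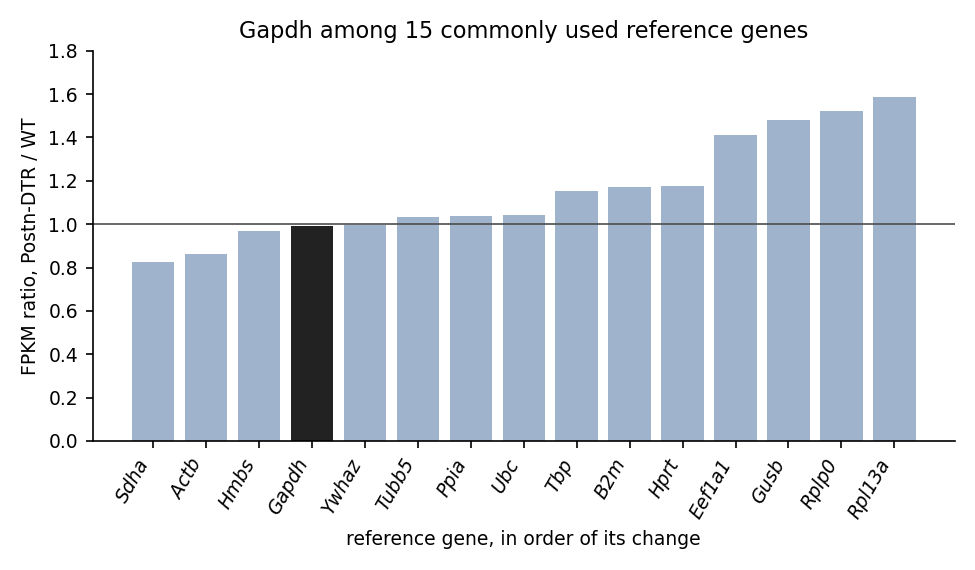
Ratio of FPKM, Postn-DTR over WT, for 15 reference genes in order of their change (bars from 0, 1 library per genotype, no error bars), with Gapdh in black and a line at 1. As deposited, Gapdh stands at 0.992 beside Ywhaz at 0.996, while Rpl13a stands at 1.59.

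Around the enzymes, the genes of glucose and pyruvate handling spread further than the enzymes themselves, from -1.88 for Pcx to 2.33 for Pdk4 outside the pentose phosphate pathway. Of 9 regulators of glycolytic flux compared (of 10 listed), 1 was at least 2-fold higher and 0 lower. The shares over all genes compared were 3.88% and 3.12%. The median of the list was -0.03 and ran from -0.58 to 0.07 over the alternatives. The gene past 2-fold was Pdk4, the kinase that switches off pyruvate dehydrogenase, at 14.3 FPKM in WT but 75.9 in Postn-DTR, for a change of 2.33. Pdk2, a related kinase, was at 38.5 and 65.7 FPKM. Pfkfb3, which makes the fructose 2,6-bisphosphate that activates phosphofructokinase, was at 50.0 and 49.1 FPKM, and Pfkfb1 was at 18.6 and 12.5 FPKM.

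Among 9 transporters of glucose and lactate compared (of 10 listed), 1 was higher and 1 lower by at least 2-fold. Over all genes compared, these shares were 3.88% and 3.12%. Slc2a4, the insulin-responsive glucose transporter of adipocytes and muscle, was at 44.8 FPKM in WT but 13.7 in Postn-DTR, for a change of -1.64. Slc16a3, a lactate exporter of glycolytic cells, was at 4.91 and 14.4 FPKM, a change of 1.38 that was 0.77 when scaled to Rpl13a. Slc2a1, the basal glucose transporter, was at 11.0 and 16.9 FPKM, a change of 0.57 that turned to -0.05 when scaled to Rpl13a. The lactate carrier Slc16a1 was at 23.8 and 23.3 FPKM, beside its chaperone Bsg at 264.4 and 278.0 FPKM.

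The genes that bring pyruvate into the mitochondrion, and those of the pyruvate dehydrogenase complex that acts on it there, were lower. Of 7 genes of the pyruvate dehydrogenase complex and the mitochondrial pyruvate carrier, 7 were lower in Postn-DTR and 3 by at least 2-fold. Over all genes compared, 3.12% were at least 2-fold lower. The median of the list was -0.98, with a range of medians over the alternatives from -1.64 to -0.95. The carrier subunits Mpc1 and Mpc2 were at 249.5 and 178.1 FPKM in the WT library and at 100.6 and 79.9 in the Postn-DTR one. Pdha1 and Pdhb, the subunits of the first enzyme of the complex, were at 149.5 and 143.4 FPKM in the WT library and at 75.1 and 70.6 in the Postn-DTR one. Pkm and Ldha, which make pyruvate and use it in the cytosol, had changes of 0.03 (negative under 3 scalings) and -0.39.

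Neighbouring pathways that draw on glycolytic intermediates were also lower in part. Of 6 genes of gluconeogenesis and glycerol phosphate compared (of 9 listed), 6 were lower and 2 by at least 2-fold, beside 3.12% of all genes. The median of the list was -0.58 and ran from -1.17 to -0.22 over the alternatives. It was -0.22 without a filter on low values and with a minimum of 10 FPKM. Pcx, which carboxylates pyruvate, was at 327.7 and 88.4 FPKM, and Gpd1, which makes glycerol 3-phosphate from the product of Aldoa, at 357.9 and 128.0 FPKM. Pck1, which is needed for glycerol synthesis in fat, was at 138.6 and 138.0 FPKM, counted as lower at a change of -0.01. Of 8 genes of the pentose phosphate pathway, which starts from the substrate of Gpi1, 6 were lower and 1 by at least 2-fold. The share of all genes at least 2-fold lower was 3.12%. The median of the list was -0.49 and ran from -1.11 to -0.43. The gene past 2-fold was Tkt, transketolase, at 429.9 and 98.5 FPKM. These lists were chosen with results of these libraries known, so their direction is not independent evidence.

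**Figure D4:**
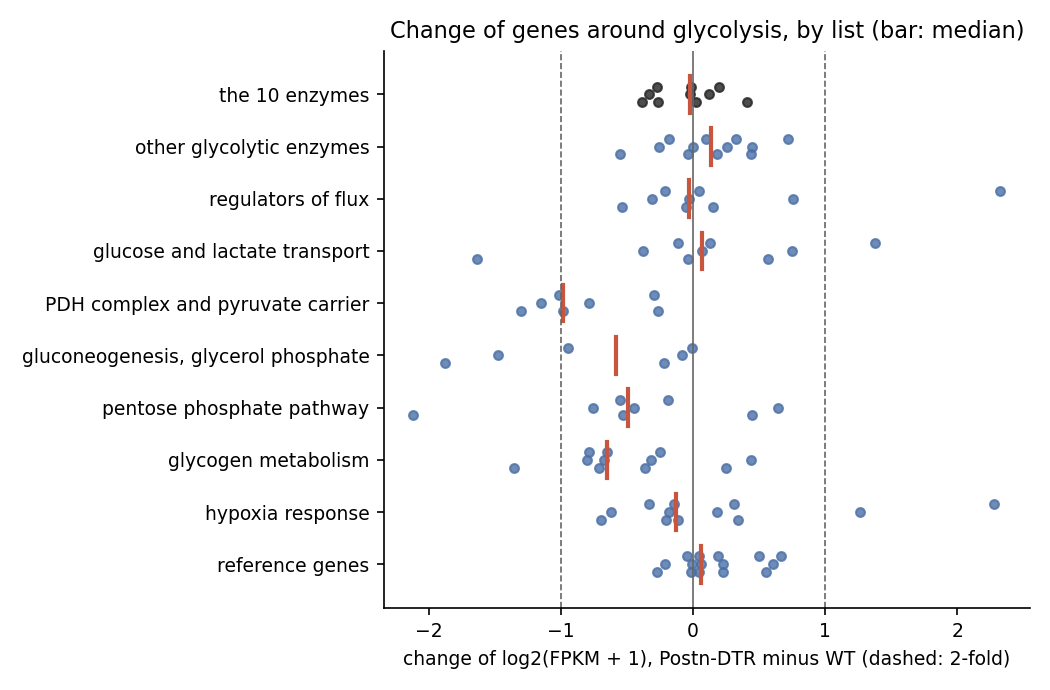
Change in log2(FPKM + 1) between the libraries, Postn-DTR minus WT, of the compared genes of each list (points) with the list's median (bar) and dashed lines at 2-fold. The 10 enzymes centre on -0.02 and the pyruvate dehydrogenase and carrier genes on -0.98, a value that ran from -1.64 to -0.95 over the alternatives.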

How the data were processed

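Whole-omentum RNA of 1 WT and 1 Postn-DTR library, both 5 days after DT, was measured by RNA-seq. Per the labels, a miRNeasy kit served for RNA extraction and a TruSeq stranded mRNA kit for the libraries. The authors deposited FPKM, 1 value per gene symbol and library. The submitters' processing notes name TopHat2 2.1.1, Bowtie2 2.2.8, SAMtools 0.1.18, Cuffdiff 2.2.1 and mm10, with no roles. The study's methods state a read length for single-end sequencing, but beside sorted cells and other kits than those in the labels, so it was not taken for these libraries. Annotation and the handling of reads with several matches are not given in the sources used here.

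Groups came from the genotype labels. The change of log2(FPKM + 1), with a pseudocount of 1, was computed for the 13127 genes whose FPKM averaged 1 or more over both libraries, and a gene was counted at 2-fold. No test was made, since there was 1 library per genotype. Fragments per library were estimated by searching for the total at which FPKM of low genes came out as whole fragments. At the best total, 76.9% of 579 values in WT and 75.6% of 549 in Postn-DTR lay within 0.1 of a whole number, and the most frequent ratio of low values between libraries was 0.967, in 174 of 723 genes. Too few values came out whole for a count test. The estimate set only the approximate read numbers and the counting intervals (95%), which treat estimated reads as independent. Genes named were the 10 members, genes of the pathway and reference lists, and copies of members. The members, lists and tests were chosen with earlier results of these data known. Positions came from GENCODE M21 (GRCm38, 10 of 10 members matched), promoter sequences from RefSeq (GRCm38.p6, 10 of 10 matched), and shared sequence from exact 75-base windows of 1 transcript per member. Ly6g and Trac, 2 of the marker genes, had no row in the files used. Scripts ran in Python 3.11.15 with pandas 2.3.3, NumPy 2.4.6, SciPy 1.17.1, Biopython 1.88 and Matplotlib 3.10.9, and were tested on simulated data. Alternatives were other pseudocounts, filters, scalings and a 1.5-fold threshold.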

Additional observations from a re-analysis of the deposited data

How the results depend on the processing

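Pseudocounts of 0.1 and 5, no filter on low values, a minimum mean of 10 FPKM and a 1.5-fold threshold, each without rescaling, left 4 enzymes higher, 6 lower and 0 past the threshold. Scalings moved the values. The median change of the 10 enzymes, -0.02 as deposited, was -0.12 at an equal 75th percentile, -0.36 with acinar genes removed and totals equalised, and -0.67 scaled to Rpl13a. The ratio of their summed FPKM, 0.902 as deposited, was 0.839, 0.710 and 0.568 in that order, 0.890 with the median change of all genes set to 0, and 0.885 with Eno1b added to Eno1, an alternative chosen after seeing the data. Scaled to Rpl13a, 1 enzyme was at least 2-fold lower (Ldha, -1.05), beside 12.4% of all genes. At 1.5-fold, 4 enzymes passed with acinar genes removed and totals equalised, and 7 scaled to Rpl13a. The median of all genes was -0.28 and -0.56 there, and 5.66% and 12.4% of all genes were at least 2-fold lower. The share of all genes past 1.5-fold was not computed under these scalings, so these counts do not set the enzymes apart. Gpi1, Hk1, Pgk1 and Pkm reversed under the scalings given above. Among all genes past 2-fold, 55.4% were higher as deposited, 28.7% with totals equalised without acinar genes and 10.6% scaled to Rpl13a. No paired analysis was possible because there was 1 library per genotype, and leaving out a replicate was not possible for the same reason. Counting error limits the lowest enzyme, Hk1, to an interval of 1.03 to 1.16 around its ratio of 1.09.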

Other observations

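Glycogen metabolism, which feeds glucose 6-phosphate into glycolysis, was lower in Postn-DTR for 9 of 11 genes compared. By at least 2-fold, 1 of them was lower, beside 3.12% of all genes. The median change of the list was -0.65 and ran from -1.27 to -0.51 over the alternatives. Pygl, the liver-type glycogen phosphorylase, was at 128.9 FPKM in WT and 78.3 in Postn-DTR, and Gys1, the glycogen synthase of most tissues, at 29.6 and 18.2 FPKM. Gys2, the liver-type synthase, which is also used in fat, was at 2.90 and 0.524 FPKM, a change of -1.36. Pgm1, which links glucose 1-phosphate to the substrate of Gpi1, was at 10.8 and 14.9 FPKM, a change of 0.44 that turned to -0.18 when scaled to Rpl13a.

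Of 12 genes of the hypoxia response outside glycolysis, 2 were at least 2-fold higher and 0 lower, beside 3.88% and 3.12% of all genes. The median change of the list was -0.13. It ran from -0.55 when scaled to Rpl13a to 0.04 at a minimum mean of 10 FPKM. With acinar genes removed and totals equalised, 1 was higher and 1 lower of 11 compared, beside 2.27% and 5.66% of all genes. When scaled to Rpl13a, 1 was higher and 2 lower, beside 1.47% and 12.4% of all genes. Ddit4, an inhibitor of mTORC1 that also answers to glucocorticoids, was at 34.7 and 172.5 FPKM, and Bnip3, a mitophagy receptor, at 83.8 and 202.4 FPKM, a change of 1.26 that was 0.92 with totals equalised without acinar genes. Vegfa was at 79.7 and 51.6 FPKM. Hif1a was at 17.4 and 21.7 FPKM, a change of 0.31 that turned to -0.02 with totals equalised without acinar genes. H6pd, the hexose 6-phosphate dehydrogenase of the endoplasmic reticulum, was at 97.7 and 153.6 FPKM, a change of 0.65 that was -0.01 when scaled to Rpl13a.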
